A study of Mus musculus with 2 samples.

Results

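The Kruppel-like factors followed here are 10 genes, Klf2, Klf3, Klf4, Klf5, Klf6, Klf7, Klf9, Klf10, Klf11 and Klf13. They were chosen by name among the 33757 features of the count table, of which 24902 carried a gene symbol. All 10 had counts and all 10 entered the test along the reporter bins. The cells came from NIH3T3-Rev-VNP1-H2B-iRFP, a derivative of the NIH3T3 mouse fibroblast line. It carries a Venus reporter of Nr1d1, the gene of the clock repressor Rev-erb alpha, and the nuclear marker H2B-iRFP, a near-infrared histone fusion. Cultures were unsynchronized and had reached 95% confluency about 5 days after seeding, and no cell received another treatment according to the labels. Single cells were sorted into 4 bins of Venus brightness on each of 2 plates with 384 wells. The labels describe 2 H2B-iRFP bins on each plate. In the sorting record, however, all of plate 1 belonged to the high RFP sort and all of plate 2 to the low RFP sort. That record is followed here, so plate and H2B-iRFP level cannot be told apart. A given Venus bin took up identical blocks of 6 well columns on the plates, so bin and well position cannot be told apart either. Whether the line is 1 clone was not given in the sources used here.

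Kruppel-like factors bind GC-rich and CACCC-type DNA through zinc fingers at the C-terminal end of the protein, while their N-terminal parts recruit different cofactors. Klf2, Klf4, Klf5, Klf6 and Klf7 act largely as activators, Klf3 represses through CtBP proteins, and Klf9, Klf10, Klf11 and Klf13 repress through Sin3 proteins. Klf9 and Klf10 are known as clock outputs, Klf9 is also a glucocorticoid-induced gene, Klf10 and Klf11 were first described as genes induced by TGF-beta, and Klf2, Klf4, Klf6 and Klf10 respond quickly to serum and stress in fibroblasts.

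Promoter stretches are shown first, for the 4 members that fell toward bright Venus. The E-box is the element through which the clock drives Nr1d1. Whether any motif has a part in the members' trends was not tested. The RefSeq promoter table of build GRCm38.p6 held windows for 8 of the 10 members, and the entries for Klf5 and Klf10 were missing. The bases from -100 to -1 before the start site of the 4 members that fell are given 5′ to 3′ on the gene's strand, with every match of the searched motifs in capitals.
Klf6, chr13:5861389-5861488, plus strand: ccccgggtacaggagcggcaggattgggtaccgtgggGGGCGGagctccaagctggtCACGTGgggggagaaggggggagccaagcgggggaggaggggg
Klf2, chr8:72318962-72319061, plus strand: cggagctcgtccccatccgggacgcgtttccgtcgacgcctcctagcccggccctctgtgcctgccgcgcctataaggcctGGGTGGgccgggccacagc
Klf9, chr19:23141126-23141225, plus strand: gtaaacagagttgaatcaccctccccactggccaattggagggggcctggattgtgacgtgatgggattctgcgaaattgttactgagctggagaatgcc
Klf13, chr7:63938916-63939015, minus strand: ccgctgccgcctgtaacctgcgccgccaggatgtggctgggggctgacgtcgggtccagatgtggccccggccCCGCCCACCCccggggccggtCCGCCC

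The motifs searched on both strands were the E-box CACGTG, the D-box TTATGNAA, the RORE core TAGGTCA, the CRE TGACGTCA, the glucocorticoid element core TGTTCT, the GC box GGGCGG and the CACCC box CCACCC. In Klf6 the E-box began at -43 and a GC box at -63. In Klf13 a GC box at -27 overlapped a CACCC box at -23, and in Klf2 a CACCC box began at -19. No searched motif matched in the whole 300-base window of Klf9, which says only that these letters are absent from it. Klf4 and Klf11 also held an E-box, shown here in capitals with 27 bases on each side.
Klf4, chr4:55532625-55532684, minus strand: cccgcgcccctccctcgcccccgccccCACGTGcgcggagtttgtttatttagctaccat
Klf11, chr12:24651130-24651189, plus strand: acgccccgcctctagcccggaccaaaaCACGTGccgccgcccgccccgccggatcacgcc
The E-box began at -182 in Klf4 and at -214 in Klf11. An E-box was thus found in 3 of 8 member windows, against 7.15% of all 32851 windows of the table. Of the members holding it, Klf6 fell toward bright Venus, and Klf4 and Klf11 were not called. The GC box matched in 7 of 8 member windows against 35.7% of all windows, and the CACCC box in 4 of 8 against 31.5%. The member windows were GC-rich, with a median of 70.7% against 52.7% over all windows. The D-box, RORE core, CRE and glucocorticoid element core matched in 0 member windows, against 3.38%, 2.61%, 1.79% and 19.0% of all windows.

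Of 768 cells, 762 passed the filters, 383 on plate 1 and 379 on plate 2. They held 151173 to 1618022 counts each, and the 8 sums ranged from 76042157 to 86612194 counts. The fibroblast identity was checked on marker lists. The 10 fibroblast markers together stood at 22872 to 29155 CPM (counts scaled to a common total of 1000000) in the 8 sums, while the endothelial list stood at 0.334 to 0.797 CPM, the blood and immune list at 0.116 to 0.832 CPM and the adipocyte list at 0 to 0.0869 CPM. The epithelial list stood at 26.0 to 45.8 CPM, most of it Krt14, with 37.1 CPM on average in bin 1 and 36.5 CPM in bin 4.

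Levels were compared between genes per kilobase of exon, as CPM per kb averaged over the 8 sums. Klf4, a factor known from pluripotency and epithelial differentiation, stood highest at 87.7 ± 6.91 CPM per kb (SD over 8 sums). Klf2, a flow- and serum-responsive factor, followed at 85.1 ± 8.05 CPM per kb. These neighbours did not differ beyond their spread. Klf6 came next at 42.3 ± 7.60 CPM per kb, with no sum reaching the lowest sum of Klf4 or Klf2. Klf10 (22.0 ± 1.39 CPM per kb) and Klf9 (19.4 ± 2.06 CPM per kb) followed and overlapped. Klf7, Klf13 and Klf3 lay between 11.2 and 11.6 CPM per kb and did not differ beyond their spread. Klf11 stood at 1.85 ± 0.251 CPM per kb and Klf5, best known from epithelia, at 0.553 ± 0.122 CPM per kb. The order depended on the length used. Per kilobase of coding sequence Klf6 led at 195 CPM per kb, before Klf4 at 184 and Klf2 at 148, and Klf10 dropped to the eighth place at 63.9. Klf3, Klf7, Klf9 and Klf13 overlap other annotated genes, and whether counting used strand was not given in the sources used here, so their levels may include reads of those genes.

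Along the Venus bins, 5 of the 10 members passed the test. Klf6, Klf2, Klf9 and Klf13 fell toward bright Venus, and Klf10 rose. The test was edgeR's quasi-likelihood test of a linear trend on the 8 sums, with Benjamini-Hochberg adjustment over 18430 genes, and each value below is a log2 difference per bin step. Of all genes tested, 15.4% were called, 6.78% as higher and 8.64% as lower toward bright Venus. The share called grew with level: it was 34.1% of the 2963 genes whose mean log2 CPM reached 6, a range that held 8 members with 5 called. The members' median trend was -0.07 log2 per bin, against 0.00 over all genes tested. Among the called members Klf6 alone exceeded the median absolute trend of all called genes, which was 0.15 log2 per bin.

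Other readings of the same sums called fewer members. Bin 4 against bin 1 called 4 members, against 13.5% of all genes, and a test of any difference between the bins called only Klf6, against 8.37% of all genes. Bins 1 and 4 did not overlap between plates for 8 members, all but Klf3 and Klf4. The same held for 54.3% of all genes, and nothing is read from this count.

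**Figure D1:**
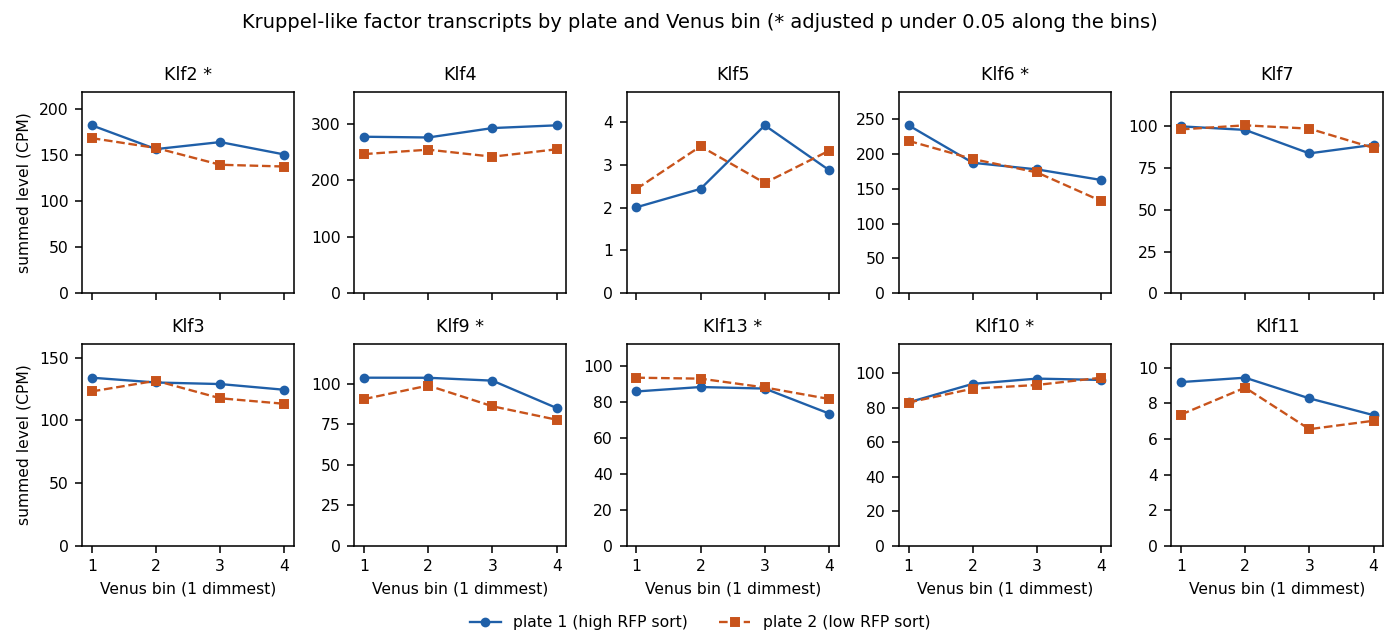
Summed level of each member in CPM (vertical axis, starting at 0) by Venus bin (horizontal axis, 1 is dimmest), with plate 1 as blue circles and plate 2 as orange squares. Members with an adjusted p under 0.05 along the bins carry an asterisk. Klf6 declined at every step on both plates, while Klf4 stayed higher on plate 1 in all 4 bins.

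Klf6 (ENSMUSG00000000078.8), an activator induced by injury and serum, changed most. From bin 1 to bin 4 it stood at 241, 187, 178 and 162 CPM on plate 1. On plate 2 it stood at 219, 193, 173 and 132 CPM. It was lower at every step on both plates, and bins 1 and 4 did not overlap. The trend was -0.20 ± 0.03 log2 per bin (SE; edgeR adjusted p = 0.00326). Bin 4 stood at 0.640 times bin 1 (edgeR adjusted p = 0.00399). The call held in 11 of 12 alternative fits, with trends from -0.21 to -0.19. It was lost without bin 1, where the trend was -0.19 (edgeR adjusted p = 0.0525).

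Klf2 (ENSMUSG00000055148.8) fell less. From bin 1 to bin 4 it stood at 183, 157, 164 and 151 CPM on plate 1 and at 169, 158, 139.7 and 138 CPM on plate 2. Bin 1 was highest on both plates, and bin 3 exceeded bin 2 on plate 1. The trend was -0.09 ± 0.02 log2 per bin (edgeR adjusted p = 0.0253). The call was lost in 5 of 12 alternative fits. In the fit without the highest cell of each plate, both of them in bin 1, the trend was -0.07 and the adjusted p 0.0605 by edgeR.

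Klf9 (ENSMUSG00000033863.3), a Sin3-binding repressor, also fell toward bright Venus. It stood at 104, 104, 102 and 84.9 CPM from bin 1 to bin 4 on plate 1. On plate 2 it stood at 90.4, 98.8, 86.0 and 77.7 CPM. Bin 4 was lowest on both plates and the other bins were close to each other on plate 1. The trend was -0.09 ± 0.02 log2 per bin (edgeR adjusted p = 0.0239). The call was lost in 5 of 12 alternative fits. The decline rested on the sums of bin 4: without bin 4 the trend was -0.02 (edgeR adjusted p = 0.778), and without bin 1 it was -0.16 and remained called.

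Klf13 (ENSMUSG00000052040.11), a close relative of Klf9, had a similar course. It stood at 85.7, 88.2, 87.3 and 73.5 CPM on plate 1 and at 93.4, 92.9, 88.0 and 81.6 CPM on plate 2. Bin 4 was lowest on both plates. The trend was -0.07 ± 0.02 log2 per bin (edgeR adjusted p = 0.0485), close to the threshold. Only DESeq2 and the stricter cell filter kept the call among 12 alternative fits, and without bin 4 the trend was -0.01 (edgeR adjusted p = 0.864).

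Klf10 (ENSMUSG00000037465.11), a TGF-beta-induced repressor and clock output, was the member that rose. It stood at 83.1, 93.9, 96.9 and 96.1 CPM from bin 1 to bin 4 on plate 1. On plate 2 it stood at 83.1, 91.1, 93.2 and 97.5 CPM. Bin 1 was lowest on both plates, and the widest step lay between bins 1 and 2. The trend was 0.07 ± 0.02 log2 per bin (edgeR adjusted p = 0.0313), and bin 4 stood at 1.16 times bin 1. The call was lost in 7 of 12 alternative fits.

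A single cell carried part of the Klf10 rise. One cell in bin 4 of plate 1 held 901 Klf10 counts, or 1972 CPM, against 377 CPM in the next highest cell of that plate. Its mitochondrial share was 18.5% and it had 6895 genes detected, so the stricter cell filter removed it. Without that cell, bin 4 of plate 1 stood at 85.0 CPM in place of 96.1 CPM, below bins 2 and 3. Fitted without the highest cell of each plate, the trend was 0.05 (edgeR adjusted p = 0.211), and with the stricter cell filter it was 0.03 (edgeR adjusted p = 0.450). Bin 1 remained the lowest bin on both plates in the sums without these cells.

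**Figure D2:**
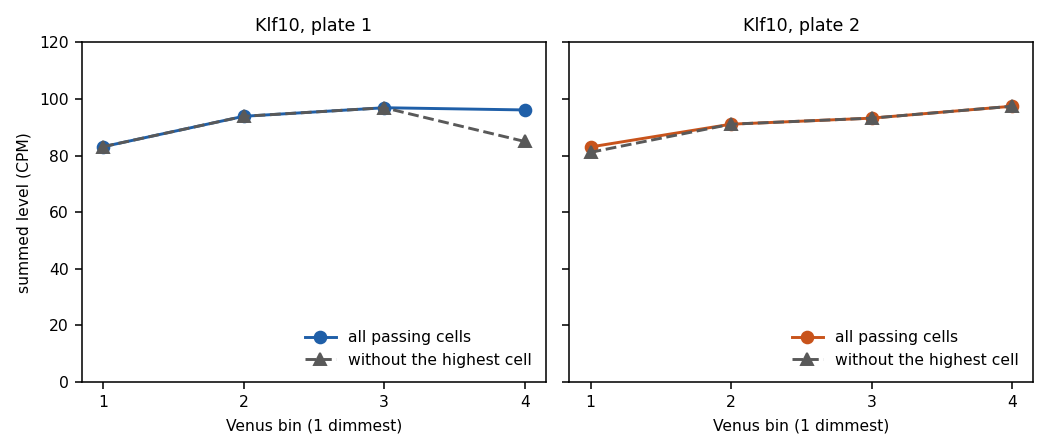
Summed level of Klf10 in CPM (vertical axis, starting at 0) by Venus bin on each plate, with all passing cells (coloured circles) and without the highest cell of each plate (grey triangles). On plate 1 bin 4 moves from 96.1 to 85.0 CPM, while the other bins of that plate stay in place.

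The other 5 members were not called. Klf4 (ENSMUSG00000003032.9) stood at 277, 276, 292 and 297 CPM on plate 1 and at 246, 254, 242 and 255 CPM on plate 2. Its bins overlapped between plates, and the trend was 0.02 ± 0.02 log2 per bin (edgeR adjusted p = 0.409). Klf3 (ENSMUSG00000029178.16) ranged from 113 to 134 CPM, with a trend of -0.04 ± 0.02 (edgeR adjusted p = 0.165). Klf7 (ENSMUSG00000025959.14), known from neurons and adipocyte precursors, ranged from 83.9 to 101 CPM, with a trend of -0.06 ± 0.02 (edgeR adjusted p = 0.119). Klf5 (ENSMUSG00000005148.9) and Klf11 (ENSMUSG00000020653.13) were scarce. Klf5 ranged from 2.01 to 3.92 CPM with a trend of 0.16 ± 0.09, and Klf11 from 6.55 to 9.45 CPM with a trend of -0.09 ± 0.04. Their larger standard errors left adjusted p-values of 0.262 and 0.191 by edgeR. All 10 members had the same sign of trend on each plate alone, which for called genes the call nearly requires.

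**Figure D3:**
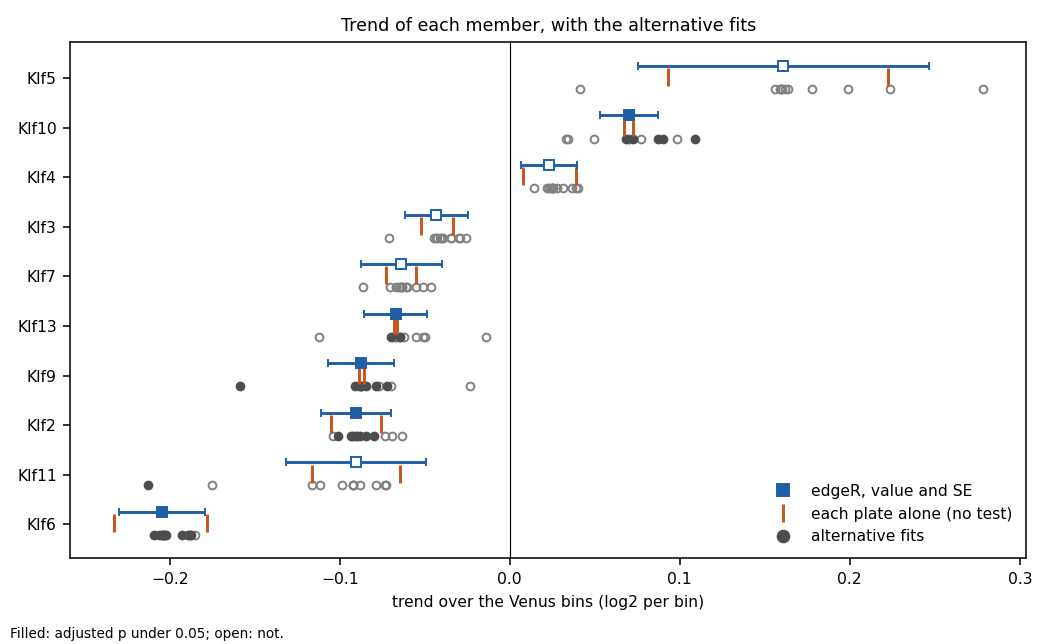
Trend of each member over the Venus bins in log2 per bin (horizontal axis), with the edgeR value and SE as blue squares, each plate alone as orange ticks and the 12 alternative fits as grey circles. Filled symbols have an adjusted p under 0.05. Klf6 lies apart from 0 in every fit, while Klf9 and Klf13 reach values near 0 without bin 4.

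The relatives and partners of these factors were examined from lists fixed by name. For each list, 15.4% of all genes tested were called, 6.78% as higher and 8.64% as lower toward bright Venus. Of 16 other Kruppel-like and Sp factors, 9 were in the table and 7 were tested. Of these, 0 were called by edgeR, 0 by DESeq2, 0 by limma on mean CPM, and 0 at an unadjusted p under 0.05 by edgeR. These are readings of the same sums, and with 7 genes nothing is read from the count. As examples chosen after their values were seen, Klf16 averaged 19.1 CPM in bin 1 and 18.6 CPM in bin 4, and Sp3, a relative that binds the same GC boxes, averaged 75.8 and 69.1 CPM. Of 12 cofactors and regulators, 1 was called, the Klf3 partner Ctbp1, at -0.06 ± 0.02 log2 per bin (edgeR adjusted p = 0.0375). Ctbp2 stood at 0.06 ± 0.10 and was not called. Sin3a, at -0.07 ± 0.03, had an adjusted p of 0.132. Of 7 genes in the ERK5 and MEF2 arm that induces Klf2 and Klf4, the kinases Map3k2 (-0.19 ± 0.03) and Map3k3 (-0.10 ± 0.03) fell. Mapk7, which encodes ERK5 itself, had a trend of -0.06 ± 0.02 (edgeR adjusted p = 0.132).

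Among 10 early TGF-beta targets, 6 fell and 1 rose toward bright Venus, with a median of -0.10 log2 per bin. Beside this and the next lists, 8.64% of all genes tested fell and 6.78% rose. The share called was 25.4% among genes whose mean log2 CPM reached 3 and 34.1% among those that reached 6. The 3 with the widest trends were the matricellular gene Ccn2 (-0.36 ± 0.06), the Smad inhibitor Pmepa1 (-0.26 ± 0.04) and the corepressor Tgif1 (-0.26 ± 0.03). Bhlhe40, which is also a clock gene, was the one that rose. Klf10, which shares this induction, had a positive trend, and Klf11 a negative one that was not called. Of 19 immediate early genes, 4 fell and 2 rose, and the widest trend was that of Fosl1 at 0.33 ± 0.08 log2 per bin. Egr3 (-0.25 ± 0.17) and Maff (0.23 ± 0.09) came next and were not called. Of 9 tested glucocorticoid-induced genes, Ddit4 (-0.27 ± 0.04) and Cebpd (-0.17 ± 0.04) fell and Mt2 (0.09 ± 0.02), named because it was the only one, rose. Pdk4, at 0.19 ± 0.09, was not called. For scale, 13 of 19 clock genes rose and 2 fell, with Nr1d1 at 1.38 ± 0.02, Ciart at 0.87 ± 0.07 and Dbp at 0.74 ± 0.02 log2 per bin. Klf9 and Klf10 each moved by less than 0.10 log2 per bin.

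Between plates, members could be compared only as 1 sample each, without a test. Klf4 stood at 280 CPM of the plate total on plate 1 and at 254 CPM on plate 2, a ratio of 1.10 (exact binomial 95% interval 1.09 to 1.11, counting error only). On the normalized scale plate 1 was higher in each of the 4 bins, by 1.08 to 1.21 times. Klf9 had a ratio of 1.07 and was also higher on plate 1 in each bin, by 1.05 to 1.18 times. The scarce Klf11 had a ratio of 1.11 and was likewise higher in each bin, by 1.04 to 1.26 times. Klf13 lay the other way, with a ratio of 0.904 over the plates and 0.901 to 0.993 over the bins. All bin ratios are on the normalized scale and all plate ratios on plate totals. Bin ratios close to 1 may therefore depend on the scaling, which was not tested. Mitochondrial shares also differed, with a median of 9.27% on plate 1 and 7.42% on plate 2, and the part of this in the ratios was not tested.

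Across single cells, 8 members were found in nearly every cell. Klf3, Klf4, Klf6, Klf7 and Klf10 had a count in all 762 cells, and Klf2, Klf9 and Klf13 in at least 98.9% of the cells of each plate. Klf11 had a count in 69.2% of plate 1 cells (exact 95% interval 64.3 to 73.8) and 64.6% of plate 2 cells. Klf5 had one in 39.2% (34.2 to 44.3) and 34.3%. Thinned to an equal depth of 300000 counts, the shares were 62.4% and 54.7% for Klf11 and 30.3% and 28.3% for Klf5. Cell-to-cell spread differed among the abundant members. The cell at the 90th percentile held 7.80 times the Klf2 CPM of the cell at the 10th percentile on plate 1 and 10.6 times on plate 2. For Klf4 these ratios were 7.67 and 6.91, and for Klf10 4.80 and 5.57. Klf3 (2.58 and 2.84) and Klf13 (2.79 and 2.84) spread least, and Klf6, Klf7 and Klf9 lay between 2.93 and 3.67. The median cell held 201 and 183 counts of Klf4 and 110 and 103 of Klf2. One cell in bin 1 of plate 1 had the highest level of Klf2 (1075 CPM), Klf3 (420.4 CPM) and Klf4 (1171 CPM) on that plate.

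Klf2, Klf4 and Klf6 were correlated across cells. Spearman correlations were computed over 383 cells on plate 1 and 379 on plate 2, and are descriptions of cells that share a plate and a depth scale. Klf2 with Klf4 was the highest of the 45 pairs, at 0.383 on plate 1 and 0.437 on plate 2. Klf2 with Klf6 stood at 0.283 and 0.371, and Klf4 with Klf6 at 0.258 and 0.327. Ranking cells within Venus bins left the first pair at 0.383 and 0.427. Klf9 with Klf13 stood at 0.285 and 0.218. Over all pairs the medians were 0.102 and 0.151, and 39 pairs were positive on both plates. Klf10 had low values with most members: with Klf6 it was at -0.04 on both plates, with Klf2 at 0.0065 and 0.0496, and with Klf4 at 0.162 and 0.193.

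**Figure D4:**
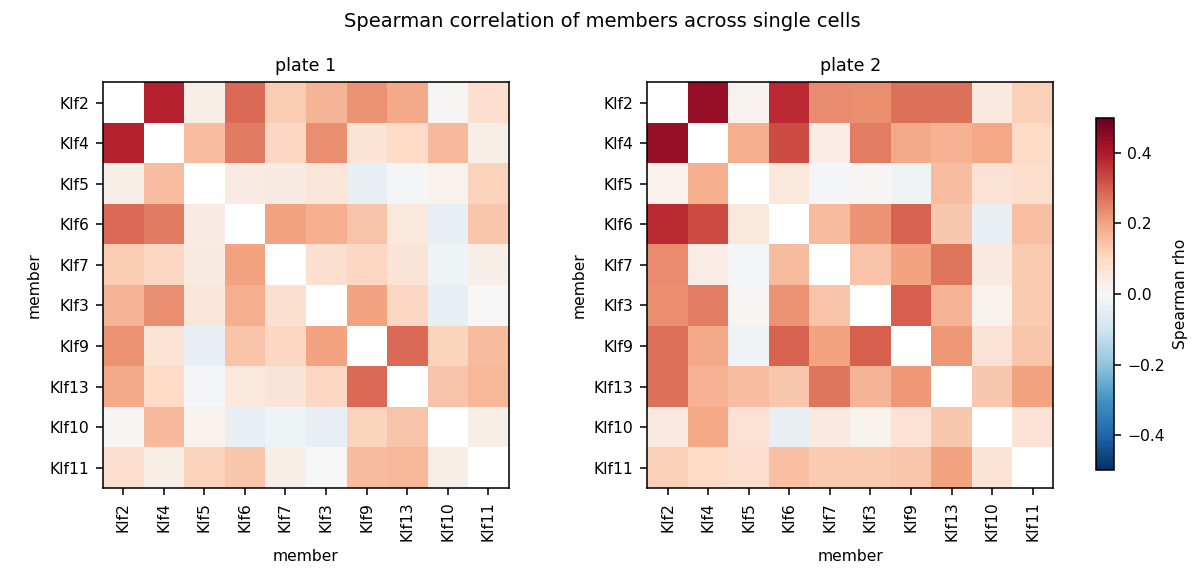
Spearman correlation of CPM between members across the cells of plate 1 (left, 383 cells) and plate 2 (right, 379 cells), with positive values in red and negative in blue. Klf2 with Klf4 is the darkest pair on both plates, at 0.383 and 0.437.

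Klf6 had the widest correlation with the reporter among the members. Its correlation with the YFP transcript, the reporter sequence in the count table, was -0.341 on plate 1 and -0.352 on plate 2. With recorded Venus fluorescence it was -0.338 and -0.384. Within Venus bins the correlation with YFP shrank to -0.128 and -0.0651. Klf6 also ran with Nfil3, a D-box repressor that peaks opposite to Dbp, at 0.275 and 0.286, or 0.213 and 0.192 within bins. Klf4 stood at 0.205 and 0.224 with Nfil3. Klf9 changed sign with YFP, from -0.0825 and -0.0698 over whole plates to 0.0845 and 0.0627 within bins, all of them small. By bin it stood at -0.158 and -0.123 in bin 1 and at 0.128 and 0.217 in bin 2. It was at 0.0255 and -0.0939 in bin 3 and at 0.338 and 0.255 in bin 4, so the values did not follow the order of the bins. Klf9 was near 0 with Dbp over whole plates, at 0.0044 and 0.0407, and at 0.116 and 0.155 within bins. Klf9 correlated with Bhlhe40 at 0.179 and 0.0890, and Klf10 with Bhlhe40 at 0.139 and 0.198. For the summed immediate early list, Klf6 stood at 0.230 and 0.248, Klf2 at 0.211 and 0.306 and Klf9 at 0.167 and 0.285, while Klf10 stood at 0.0407 and 0.0174.

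With the summed G2/M list, Klf4 and the scarce Klf5 had the highest positive correlations on both plates, and Klf9 and Klf13 the most negative. Along the Venus bins themselves, 12 of 42 S phase genes rose and 0 fell, and 7 of 52 G2/M genes rose and 1 fell. Of all genes tested, 6.78% rose and 8.64% fell. With the summed G2/M list, Klf4 correlated at 0.400 on plate 1 and 0.254 on plate 2 by rank. Pearson's correlation of log2(CPM + 1) for this pair was smaller, at 0.218 and 0.141, and the rank correlation on plate 1 was 0.559 in bin 1 and 0.232 in bin 4. Klf5 stood at 0.167 and 0.136 by rank. Klf9 stood at -0.193 and -0.309, and Klf13 at -0.187 and -0.234. With the summed S phase list, Klf4 stood at only 0.128 and 0.0756 and Klf5 at 0.075 and 0.0295. Klf9 stood there at -0.213 and -0.230, and Klf13 at -0.0776 and -0.183. Among the 25% of cells with the highest summed S phase and G2/M lists on each plate, mean Klf4 was 1.41 times that of the other cells on plate 1 and 1.21 times on plate 2. The Klf4 medians on plate 2 were closer, at 220 against 209 CPM. Mean Klf5 was 1.76 times on each plate, at 4.05 against 2.31 CPM on plate 1. Mean Klf9 was 0.802 and 0.708 times, and mean Klf13 0.848 and 0.776 times. The means of Klf2, Klf3, Klf6, Klf7 and Klf11 were also lower in these cells on both plates, at 0.812 to 0.919 times. Klf4 also correlated with the mitochondrial share of a cell, at -0.326 and -0.192, and with its number of detected genes, at 0.280 and 0.132, and the part of these in its relation to the G2/M list was not tested. The fit without these cycling cells lost 3 calls: Klf9 at -0.08 (edgeR adjusted p = 0.104), Klf13 at -0.06 (edgeR adjusted p = 0.137) and Klf10 at 0.08 (edgeR adjusted p = 0.0809). It gained 1, Klf11 at -0.21 (edgeR adjusted p = 0.0387). The 3 lost trends were -0.09, -0.07 and 0.07 for Klf9, Klf13 and Klf10 in the fit on all passing cells. Their standard errors were wider without the cycling cells, at 0.0265, 0.0212 and 0.0247 against 0.0194, 0.0185 and 0.0169. With 571 of 762 cells, 2154 of 17660 genes were called, against 2843 of 18430 with all passing cells.

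**Figure D5:**
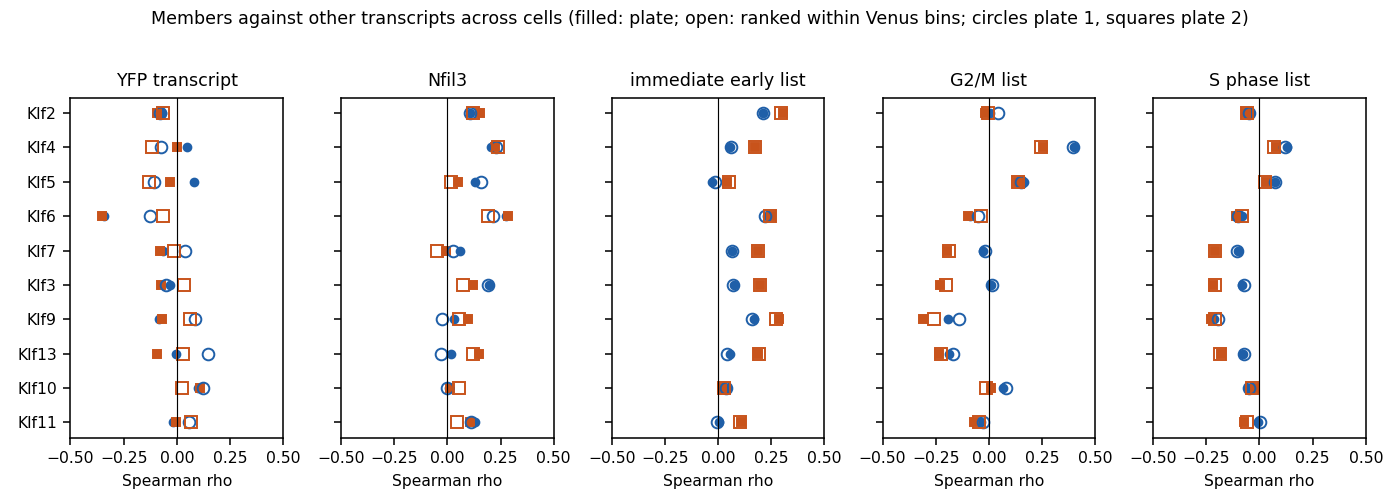
Spearman correlation (horizontal axis) of each member with the YFP transcript, Nfil3 and the summed immediate early, G2/M and S phase lists, over the cells of plate 1 (blue circles) and plate 2 (orange squares), filled for whole plates and open for ranks within Venus bins. Klf6 lies lowest for YFP at -0.341 and -0.352, and Klf4 lies highest for the G2/M list at 0.400 and 0.254.

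The genes whose levels were most like each member across cells were named by 1 rule, the highest value of the lower of the plates' correlations among 9413 genes. Klf4 had the closest company, with the keratin Krt14 at 0.617 on plate 1 and 0.571 on plate 2, Sec14l1 at 0.567 and 0.566, and the annexin Anxa8 at 0.647 and 0.554. Anxa8 rose toward bright Venus by 0.21 log2 per bin, while Krt14 was not called. Of the other epithelial markers, Cdh1 averaged 5.38 CPM in bin 1 and Krt8 0.147 CPM, and Epcam was at 0 in bins 1 and 4. Klf2 ran with Arf2 (0.502 and 0.493), the immediate early small GTPase gene Rhob (0.485 and 0.567) and Trim47 (0.470 and 0.529). Rhob was also among the 3 genes most like Klf3, at 0.259 and 0.364. Klf9 ran with Ypel2 (0.361 and 0.341), Slc44a2 (0.337 and 0.384) and Atp6v1g1 (0.335 and 0.366), and all of these fell toward bright Venus. Klf6 ran with Gdi2 (0.317 and 0.367), Rps23 (0.316 and 0.343) and Pxdc1 (0.315 and 0.317), which fell as well. Klf13 ran with Cic (0.315 and 0.322), Trim47 (0.310 and 0.372) and Fxyd5 (0.267 and 0.344). For Klf3, Klf5, Klf7, Klf10 and Klf11 no gene passed 0.27 on both plates, and the gene most like Klf10 was Tspo at 0.20 and 0.202.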

How the data were processed

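The authors deposited raw counts per gene and cell, and a sorting record with fluorescence intensity per cell in arbitrary units, per the file headers. STAR 2.7.11a, SAMtools, bedtools, HTSeq and the build GRCm39 are named in the submitters' processing notes. Annotation, strand setting and molecular identifiers were not given in the sources used here. Without such identifiers PCR copies are not separate molecules, and the intervals given cover counting error only. The libraries were full-length, after 21 and 8 PCR cycles per the labels' protocols, so counts grow with transcript length and levels between genes are given per kilobase.

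Cells with at least 1000 genes, at least 0.1 of their plate's median total and at most 25% mitochondrial counts were kept, and 6 were left out. Sorting placed 1 cell in a well according to the labels' protocols; doublets were not called. Cells are named by plate and well, so shared barcodes could not be counted. Counts were summed per plate and Venus bin. The sums were tested with edgeR 4.0.16 in R 4.3.3 (TMM, filterByExpr, quasi-likelihood F-test, bins plus plate, 3 residual degrees of freedom), at an adjusted p under 0.05. Trend weights were 3 for outer and 1 for inner bins, divided by 10, and standard errors came from the F statistic. The replicate is the plate (n = 2), and nothing says that the plates came from separate cultures. The plate term takes out the level difference between plates. The p-values therefore set a trend against how far the course over the bins differs between these plates, and against no wider spread. In the fit each gene's spread was also drawn toward that of other genes. A p-value thus does not rest on the gene's own 3 residual degrees of freedom alone. The plate is a shared sort and library by its label, so it was kept as a block.

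Lengths came from GENCODE exons of build GRCm38 and promoters from RefSeq, neither of the authors' build, so only names, lengths, overlaps and these windows were used. Features without a symbol held 1.07% of counts. Named were all members, the 3 genes most like each across cells, and from each list the called relatives or the largest trends. Cell type markers served as a check of the label. The members and lists were chosen with earlier results of these data known. The fit was also run on simulated counts with trends of 0.2 and 0.5 log2 per bin, and 100% of the changed genes were called at each. The simulation had a fixed spread and no plate difference. Its changed genes were drawn only from those with a mean log2 CPM above 3, so genes as scarce as Klf5 were not covered. Narrower trends, such as those of the called members other than Klf6, were not simulated. Alternatives were library totals, DESeq2 1.42.0, no filter, no plate term, an additive linear model, a stricter cell filter, limma 3.58.1 on mean CPM plus 0.5, cells thinned to 300000 counts and cells without the cycling 25%. Leaving out bin 1, bin 4 or a member's highest cell of each plate was chosen after seeing the data.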

Additional observations from a re-analysis of the deposited data

How the results depend on the processing

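The count of called members, 5, stayed within 1.5 times with DESeq2, without a filter, with the stricter cell filter, with limma on mean CPM and after thinning. It was 2 with library totals, 2 with the additive linear model, 3 without the cycling cells and 1 with no replicate block, where Klf6 alone remained. Of the alternatives chosen after seeing the data, it was 1 without bin 1 (Klf9), 1 without bin 4 (Klf6), and 2 with each member fitted without its highest cells (Klf6 and Klf9). The count over all genes, 2843 of 18430, was 2727 with library totals and 2154 of 17660 without the cycling cells. It was 1683 with no replicate block, 1858 with the additive linear model, 1139 without bin 1 and 358 without bin 4. Library totals in place of TMM moved the share of higher calls from 44.0% to 57.8%, limma on mean CPM to 57.4%, and library totals moved the median of all genes by 0.02 log2 per bin. All members kept their sign in all 12 alternative fits and on each plate alone. The plates alone, without a test, gave -0.18 and -0.23 log2 per bin for Klf6, and between 0.09 and 0.22 for Klf5, the member whose plates lay farthest apart. With 2 plates and 3 residual degrees of freedom, what could be separated depended on each gene's standard error. Among the members it ranged from 0.02 log2 per bin for Klf4 to 0.09 for the scarce Klf5.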
